A study of Rattus norvegicus and Mus musculus with 34 samples.

Results

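Macrophages clear debris and direct the repair of a bone wound, and 10 genes that mark these cells or their state of activation were followed here by name: Cd68, Adgre1, Mrc1, Cd163, Arg1, Nos2, Cd86, Cd80, Trem2 and Msr1. The genes were taken by their symbols, whatever their level, and all 10 were found among the 20022 genes of the rat table and among the 51912 genes of the mouse table. The rat samples were bulk healing tissue of wild-type male Sprague-Dawley rats, 6 to 8 weeks old, with a periodontal bone defect in the mandible, taken on day 3, 7 or 14. The sensory nerve+ group (Con in the labels) had the defect alone, and the sensory nerve- group (NN) also had sensory denervation by transection of the inferior alveolar nerve. Each group held 4 rats, except the sensory nerve+ group of day 3 with 3. All rats received penicillin after surgery, and each sample was a mixture of cells, so that fewer cells of a type and less RNA per cell cannot be told apart. In vitro, the wild-type mouse macrophage line RAW264.7 was stimulated for 6 h with 100 ng/ml lipopolysaccharide (LPS), a bacterial trigger of inflammation, alone in 6 cultures or with 10 nM calcitonin gene-related peptide (CGRP), a neuropeptide of sensory nerves, in 5. RAW264.7 is a single transformed line, and an unstimulated group was not analysed here.

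Tissue macrophages come from circulating monocytes and from resident cells, and they are recognised by lysosomal and surface proteins such as CD68, a glycoprotein of the endosome and lysosome, and F4/80, the adhesion receptor encoded by Adgre1. Interferon and bacterial products drive a classical state, with nitric oxide made from arginine by the inducible synthase Nos2 and with the T cell costimulators Cd80 and Cd86 on the surface. Interleukin-4 and wound signals drive an alternative state, with Arg1, which splits arginine into ornithine and urea, and Mrc1, the mannose receptor. Cd163 takes up haptoglobin-bound haemoglobin, Msr1 is the class A scavenger receptor for modified lipoproteins and debris, and Trem2 is a lipid receptor that signals through Tyrobp. In bone the same monocyte lineage also gives rise to osteoclasts.

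The factor PU.1, encoded by Spi1, is needed for macrophage development and binds a purine-rich core, GAGGAA. The RefSeq promoter sequences (build GRCr8) held an entry for 7 of the 10 genes, and Arg1, Nos2 and Msr1 had none. Within the 250 bases before the start, the letters GAGGAA were found on 1 strand or the other in 5 of these 7 promoters, and in 23.3% of all 33469 promoters of the table. The match lay 27 bases before the start in Cd68, 29 in Trem2 and 35 in Mrc1, which had another match at 180 bases. It lay at 207 bases in Adgre1 and at 202 in Cd86, and the letters were not in this window in Cd80 or Cd163. The 120 bases before the start are shown for the 3 genes with a match close to it, and the capitals mark the motif, which reads TTCCTC on the strand of each of these genes.
Cd68 (chr10:54882442-54882561, - strand): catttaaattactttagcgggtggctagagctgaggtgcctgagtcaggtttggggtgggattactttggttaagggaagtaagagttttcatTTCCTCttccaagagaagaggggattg
Mrc1 (chr17:82157605-82157724, + strand): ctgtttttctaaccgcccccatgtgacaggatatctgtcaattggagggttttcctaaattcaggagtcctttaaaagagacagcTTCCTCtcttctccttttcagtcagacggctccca
Trem2 (chr9:20151780-20151899, - strand): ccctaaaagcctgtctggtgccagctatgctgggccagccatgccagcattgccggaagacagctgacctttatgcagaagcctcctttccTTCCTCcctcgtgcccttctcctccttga
A match of 6 letters is a description of the sequence, and no binding of PU.1 was measured.

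The rat samples held between 14854389 and 18742274 counts, and the macrophage cultures between 55614185 and 71538840 reads. Levels in tissue are given as CPM, the counts scaled to a common library size by the trimmed mean of M-values method, which sets the rats on 1 scale but does not correct for gene length, so that levels were compared between rats and not between genes. The summed level of the other 22 macrophage and monocyte identity genes lay between 1321 and 6390 CPM in the 23 rats, and at least 21 of the 22 reached a mean of 1 CPM in every group. The tissue around the macrophages was not the same on each day. The summed level of 10 skeletal muscle genes lay between 23.3 and 504 CPM on day 3, between 2438 and 43189 on day 7 and between 250 and 29749 on day 14, and the sum of 11 neutrophil genes reached 7620 CPM in 1 rat of day 14. The sensory nerve- rats of day 7 were deposited in a table of their own with no sensory nerve+ rat, so that table and transection cannot be told apart on that day. On day 3, rat 1 of the sensory nerve+ group and rat 4 of the sensory nerve- group stood apart with the highest Arg1, Nos2, Mrc1, Cd163 and Msr1 of their groups.

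**Figure D1:**
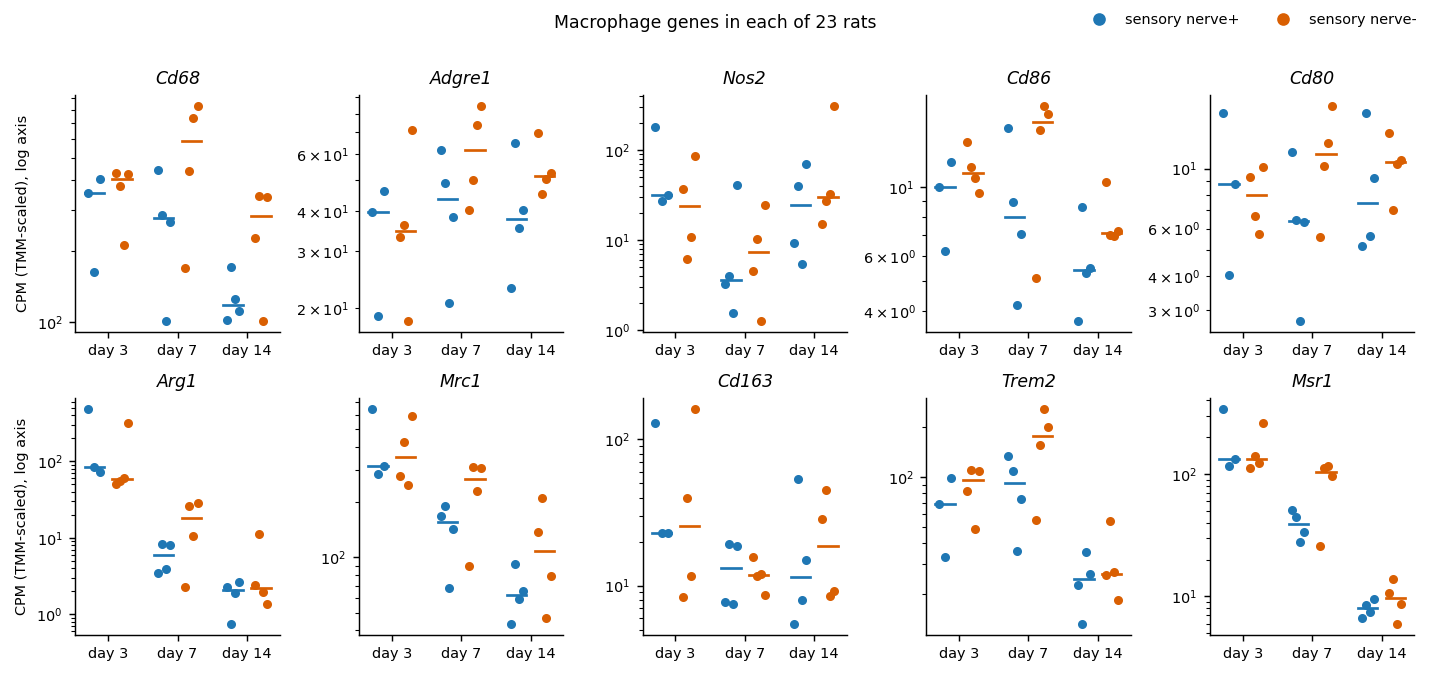
CPM of the 10 genes in each rat on log axes, by day, with sensory nerve+ rats in blue and sensory nerve- rats in orange; horizontal lines are group medians. Arg1, Msr1 and Mrc1 fell from day 3 to day 14 with no overlap between those days, while Adgre1 and Cd80 overlapped between all groups. The share of all genes without overlap is not given here. Between days 3 and 14, 28.2% of all genes in sensory nerve+ rats and 38.8% in sensory nerve- rats had an unadjusted edgeR p under 0.05.

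Msr1 and Arg1 were the genes that fell most as healing went on. Msr1 went from between 113 and 341 CPM on day 3 to between 5.96 and 14.0 CPM on day 14 over both nerve states, and Arg1 from between 49.9 and 483 CPM to between 0.751 and 11.3 CPM. Mrc1 fell by a smaller factor, and Trem2 was called between day 3 and day 14 in the sensory nerve- group with edgeR and in both nerve states with DESeq2, and the interaction did not pass. Adgre1, Cd80, Cd86, Cd163, Cd68 and Nos2 were called in none of the 6 comparisons of days with edgeR, while DESeq2 called Cd163 between day 3 and day 7 in both nerve states and Cd68 between day 3 and day 14 in the sensory nerve+ group.

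Msr1 in sensory nerve+ rats was 341, 116 and 133 CPM on day 3 in rats 1 to 3. It was 50.5, 44.3, 27.8 and 33.6 CPM on day 7 in rats 1 to 4. On day 14 it was 6.62, 8.56, 7.47 and 9.46 CPM. The 3 days did not overlap, though the rats of day 3 spread widely, from 116 to 341 CPM. Sensory nerve- rats had Msr1 at 113, 141, 124 and 258 CPM on day 3. It was 25.7, 112, 115 and 95.5 CPM on day 7, with rat 1 apart from the other 3. On day 14 it was 10.6, 14.0, 5.96 and 8.70 CPM, below every rat of the earlier days. Rat 1 of day 7 also had the highest muscle sum of all rats, 43189 CPM, against 2438 to 8315 CPM in the other 3 rats of its group.

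With the nerve intact, day 3 exceeded day 14 by a log2 fold change of 4.59 ± 0.42 (SE) for Msr1, 24.1-fold, with an edgeR adjusted p of 0.0165. After transection the same contrast gave 4.06 ± 0.37, 16.6-fold, with an edgeR adjusted p of 0.00159. The step from day 3 to day 7 in the sensory nerve+ group was 2.29 ± 0.42 with an edgeR adjusted p of 0.0252, and that from day 7 to day 14 was 2.26 ± 0.22 with an edgeR adjusted p of 0.0381. Msr1 was 1 of only 3 genes called between day 7 and day 14 in the sensory nerve+ group, 0.0202% of those tested, and the only one that was higher on day 7, 0.00673%. That call was lost without any one of 7 of the 8 rats, with adjusted p up to 0.211, and held without rat 2 of day 14. In the sensory nerve- group Msr1 was higher by 0.88 ± 0.47 on day 3 than on day 7 and by 3.14 ± 0.49 on day 7 than on day 14, and neither passed the edgeR test, with adjusted p of 0.250 and 0.104. Only 2 genes were called between day 7 and day 14 in that group, 0.0138% of those tested, of which 0% were higher on day 7. DESeq2 called Msr1 there, and edgeR did so without rat 1 of day 7 or rat 2 of day 14, where the lowest adjusted p was 0.0223. The muscle sum was low in 3 rats of day 14, 295 CPM in sensory nerve+ rat 2 and 250 and 357 CPM in sensory nerve- rats 1 and 4. Msr1 in these rats was 8.56, 10.6 and 8.70 CPM, within the range of the other rats of that day. The part of muscle in the Msr1 level was not tested.

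Most of the difference in Arg1 lay between day 3 and the later days. With the nerve intact it was 483, 82.7 and 72.8 CPM on day 3, then 3.48, 8.38, 3.98 and 7.97 CPM on day 7. On day 14 it was 2.30, 0.751, 1.90 and 2.64 CPM, and no rat of day 7 or 14 came near those of day 3. After transection it was 49.9, 55.0, 60.4 and 313 CPM on day 3. It was 2.25, 25.9, 10.6 and 28.2 CPM on day 7 and 2.46, 11.3, 1.99 and 1.39 CPM on day 14. Day 3 again lay above every later rat, and days 7 and 14 overlapped.

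Between day 3 and day 7 of the sensory nerve+ group the log2 fold change of Arg1 was 5.14 ± 0.81, 35.2-fold, with an edgeR adjusted p of 0.0169. Between day 3 and day 14 it was 6.78 ± 0.88 in the sensory nerve+ group, 110-fold, with an edgeR adjusted p of 0.0258, and 4.81 ± 0.97 in the sensory nerve- group, 28.0-fold, with an edgeR adjusted p of 0.0129. In the sensory nerve- group the contrast of day 3 with day 7 was 2.85 ± 0.91 and did not pass, with an edgeR adjusted p of 0.0836. DESeq2 gave no adjusted p for Arg1 in these 4 comparisons. Days 7 and 14 of the sensory nerve+ group did not overlap in Arg1, with a log2 fold change of 1.62 ± 0.47. This step did not pass with edgeR, with an adjusted p of 0.422, and DESeq2 called it. In the sensory nerve- group it was 1.94 ± 0.88, with an edgeR adjusted p of 0.228.

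Mrc1 was 647, 284 and 316 CPM in sensory nerve+ rats on day 3, 169, 191, 67.8 and 142 CPM on day 7, and 43.3, 91.7, 59.3 and 65.4 CPM on day 14. Sensory nerve- rats had 276, 427, 250 and 593 CPM on day 3, 89.5, 311, 231 and 308 CPM on day 7, and 137, 210, 46.8 and 78.9 CPM on day 14. In both nerve states every rat of day 3 lay above every rat of day 14, and day 7 overlapped with day 14 in the sensory nerve+ group and with both other days in the sensory nerve- group. The log2 fold change of day 3 over day 14 was 2.66 ± 0.37 in the sensory nerve+ group, 6.30-fold, with an edgeR adjusted p of 0.0272. It was 1.75 ± 0.49 in the sensory nerve- group, 3.37-fold, with an edgeR adjusted p of 0.0353. The contrast of day 3 with day 7 was 1.51 ± 0.42 and 0.73 ± 0.42 in the 2 groups and did not pass with edgeR, with adjusted p of 0.0799 and 0.290, while DESeq2 called the first.

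Trem2 followed another course, with its highest mean on day 7. It was 68.6, 33.2 and 98.4 CPM in sensory nerve+ rats on day 3, 133, 109, 36.1 and 74.0 CPM on day 7, and 22.4, 13.2, 35.6 and 26.3 CPM on day 14. Sensory nerve- rats had 82.9, 110, 48.5 and 109 CPM on day 3, 55.6, 155, 257 and 199 CPM on day 7, and 25.8, 54.7, 26.9 and 18.2 CPM on day 14. Day 14 was the low point in both, with 1 of 4 rats in each group reaching into the range of day 3. The log2 fold change of day 3 over day 14 was 1.52 ± 0.38 in the sensory nerve- group, 2.86-fold, with an edgeR adjusted p of 0.0261, and 1.43 ± 0.43 in the sensory nerve+ group, where it did not pass, with an edgeR adjusted p of 0.0867, and where DESeq2 called it. Day 7 exceeded day 14 by 2.40 ± 0.51 in the sensory nerve- group, which did not pass with edgeR, with an adjusted p of 0.104, and DESeq2 called this step in both nerve states.

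**Figure D2:**
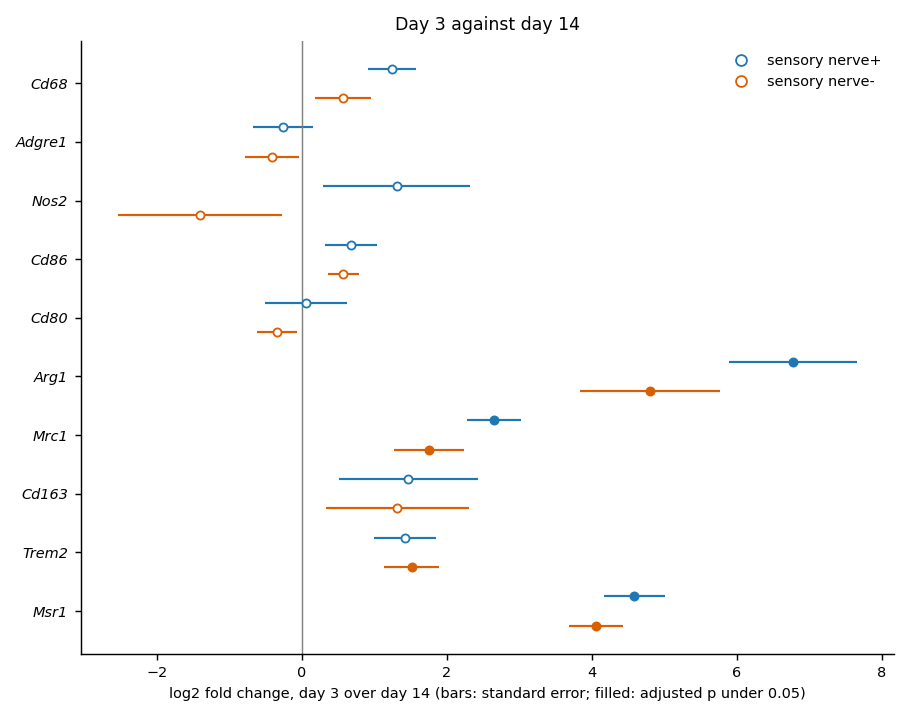
Log2 fold change of day 3 over day 14 for the 10 genes in each nerve state, with standard errors; filled points passed an edgeR adjusted p of 0.05. Msr1 stood at 4.59 and 4.06 and Arg1 at 6.78 and 4.81, and Adgre1 lay on the other side of 0 in both nerve states, at values that did not pass.

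Counted over the comparisons, 2 of the 10 genes were called between day 3 and day 7 in the sensory nerve+ group, both higher on day 3, where 6.67% of all genes tested were called and 1.79% were higher on day 3. Between day 3 and day 14 of that group 3 of 10 were called, all higher on day 3, against 5.78% and 3.09%. In the sensory nerve- group 4 of 10 were called between day 3 and day 14, all higher on day 3, against 23.5% and 14.6%. None of 10 was called between day 3 and day 7 of that group, against 10.5% and 6.77%, and 2 of the 10 had an unadjusted p under 0.05, as had 28.8% of all genes. Between its days 7 and 14 none of 10 was called by edgeR, 3 of the 10 had an unadjusted p under 0.05, as had 23.5% of all genes, and DESeq2 called Trem2 and Msr1 among 1991 of 14447 genes. The sensory nerve- rats of day 7 came from a table of their own, so that table and day cannot be told apart in these last 2 comparisons. The median log2 fold change of day 3 over day 14 was 1.37 over the 10 genes and -0.0031 over all genes in the sensory nerve+ group, and 0.95 and 0.05 in the sensory nerve- group. Comparisons of days within a nerve state share samples with each other, as do those of transection with those of days, so that their counts are not independent.

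Leaving out 1 rat ended most of these calls for some rats and not for others. In the sensory nerve+ group, the calls of Arg1, Mrc1 and Msr1 between day 3 and day 14 were lost without rat 3 of day 3 or without rat 1, 3 or 4 of day 14, with adjusted p up to 0.110, 0.112 and 0.0896. Without rat 3 of day 3, or rat 3 or 4 of day 14, edgeR called none of all genes, and without rat 1 of day 14 it called 2. Between day 3 and day 7, Arg1 was lost without rat 1, 2 or 4 of day 7 and Msr1 without these or rat 3 of day 3, with adjusted p up to 0.0638 and 0.0799. In the sensory nerve- group, Arg1 and Msr1 were called between day 3 and day 14 without each of the 8 rats in turn, with adjusted p up to 0.0375 and 0.0108. Mrc1 and Trem2 were lost without rat 1, 2 or 4 of day 3 or rat 1, 3 or 4 of day 14, with adjusted p up to 0.0898 and 0.0674. The direction held in all of these refits. Scaling to library totals alone also lost Mrc1 and Trem2 there and kept Arg1 and Msr1. Leaving out 1 rat also added calls between day 3 and day 14. Cd68 was called by edgeR in the sensory nerve+ group without rat 2 of day 3 or rat 2 of day 14. Cd86 was called in the sensory nerve- group without rat 1 of day 14.

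The identity gene Cd68 changed less over time. The log2 fold change of day 3 over day 14 was 1.25 ± 0.33 in the sensory nerve+ group, with an edgeR adjusted p of 0.0663. In the sensory nerve- group it was 0.57 ± 0.38, with an edgeR adjusted p of 0.307. Sensory nerve+ rats had 353, 162 and 407 CPM on day 3, 443, 286, 101 and 265 CPM on day 7, and 102, 171, 125 and 112 CPM on day 14. Sensory nerve- rats had 430, 380, 212 and 428 CPM on day 3, 170, 438, 741 and 834 CPM on day 7, and 227, 343, 101 and 340 CPM on day 14. The order of the group means ran from 546 CPM in the sensory nerve- group of day 7 to 128 CPM in the sensory nerve+ group of day 14, and each group overlapped with its neighbour in that order. Rats 3 and 4 of the sensory nerve- group of day 7 had the highest Cd68 of all rats, and rat 4 also had the highest sum of 10 osteoclast genes, 16426 CPM against a range of 482 to 12783 CPM in the other 22 rats. The part of osteoclasts in the Cd68 level was not tested. The group means of Adgre1 ran from 34.9 CPM in the sensory nerve+ group of day 3 to 62.2 CPM in the sensory nerve- group of day 7, a ratio of 1.78 that only Cd80 with 1.67 undercut among the 10, with single rats between 18.3 and 84.8 CPM.

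Among the classical activation genes Nos2 varied widely between rats of 1 group. It was 180, 27.6 and 32.2 CPM in sensory nerve+ rats on day 3, 3.23, 4.01, 1.54 and 40.8 CPM on day 7, and 9.29, 40.4, 5.46 and 71.1 CPM on day 14. After transection it was 36.7, 6.22, 10.96 and 86.7 CPM on day 3, 4.55, 10.4, 1.27 and 24.7 CPM on day 7, and 15.0, 27.5, 32.2 and 313 CPM on day 14. The groups overlapped, except that every sensory nerve+ rat of day 3 lay above every sensory nerve- rat of day 7, and single rats of days 3 and 14 held the highest values. The sum of the 11 neutrophil genes was the highest of its group, 592 CPM, in sensory nerve+ rat 4 of day 7 and again, 4709 CPM, in sensory nerve- rat 4 of day 14, which had the highest Nos2 of their groups. The rat with the highest neutrophil sum of all, sensory nerve+ rat 2 of day 14 with 7620 CPM, had 40.4 CPM of Nos2, and the part of neutrophils was not tested.

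Cd86 lay between 3.72 and 18.2 CPM and Cd80 between 2.74 and 17.1 CPM over the 23 rats. The group means of Cd86 ran from 5.78 CPM in the sensory nerve+ group of day 14 to 13.9 CPM in the sensory nerve- group of day 7. Those of Cd80 ran from 6.77 CPM in the sensory nerve+ group of day 7 to 11.3 CPM in the sensory nerve- group of day 7. Neighbouring groups in either order overlapped. Cd163, a receptor of the alternative state, was 129, 22.95 and 22.75 CPM in sensory nerve+ rats on day 3 and 8.36, 39.7, 11.7 and 162 CPM in the sensory nerve- group, with 1 rat far above the others in each group. On days 7 and 14 it lay between 5.47 and 53.8 CPM.

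Set against Cd68 in the same library, the fall of Msr1 and Arg1 remained. Msr1 had between 26.2 and 96.5 counts per 100 Cd68 counts on day 3, between 11.4 and 27.6 on day 7 and between 2.56 and 8.48 on day 14, and day 14 did not overlap with either earlier day. Arg1 had between 11.6 and 137 per 100 Cd68 counts on day 3 and at most 5.92 on days 7 and 14. Mrc1 had between 64.2 and 183 on day 3 and between 23.2 and 71.0 afterwards, and only the lowest rat of day 3 came within the later range. Trem2 took another course, with between 19.3 and 28.8 on day 3, between 23.8 and 38.2 on day 7 and between 5.36 and 28.5 on day 14. Adgre1 had between 7.71 and 16.7 on day 3 and between 13.1 and 49.6 on day 14. The ratio of Arg1 to Nos2 counts was between 1.36 and 8.84 in the 7 rats of day 3, between 0.195 and 8.35 on day 7, and between 0.00443 and 0.410 on day 14. Counts are not corrected for gene length, so that this ratio compares rats and does not say which gene was higher. These ratios were not tested.

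**Figure D3:**
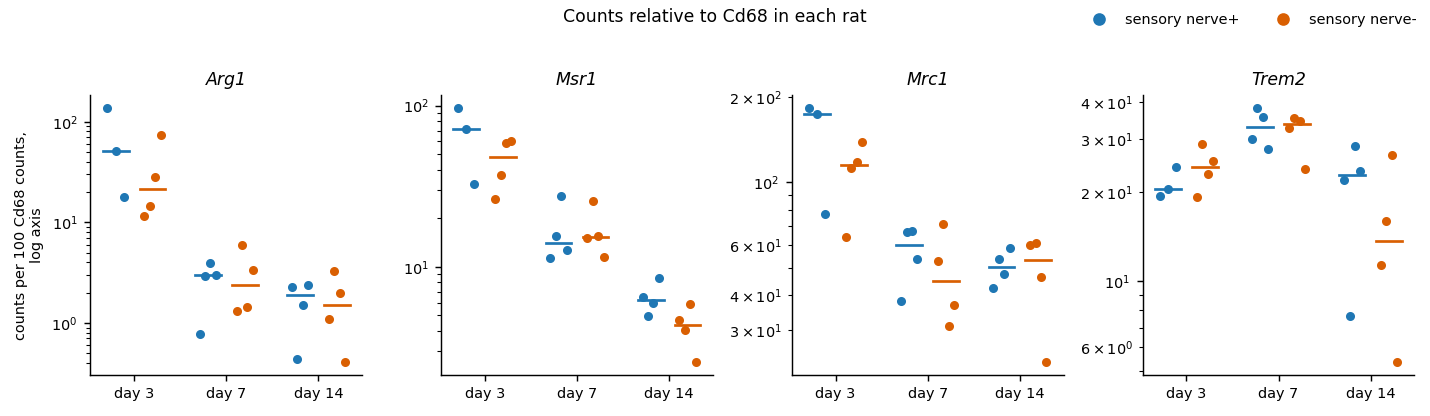
Counts of Arg1, Msr1, Mrc1 and Trem2 per 100 Cd68 counts in each rat on log axes, by day and nerve state; horizontal lines are group medians. Msr1 stayed at or below 8.48 in all 8 rats of day 14, below every rat of days 3 and 7, and Trem2 was highest on day 7.

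The comparison of the sensory nerve- with the sensory nerve+ group asked whether loss of sensory innervation changed these genes on each day. None of the 10 passed on day 3, 7 or 14, and neither did any of the 14695, 14716 and 14610 genes tested with edgeR (0% each). At an unadjusted p under 0.05 edgeR had 0, 1 and 1 of the 10 on the 3 days and 122, 215 and 1362 of all genes, and DESeq2 called 0 of the 10 on each day and 0, 1 and 95 of all genes. The median over the 10 genes was -0.09 on day 3, 0.73 on day 7 and 0.42 on day 14 on the log2 scale, beside -0.01, -0.01 and 0.03 over all genes, with 4, 8 and 10 of the 10 above 0. Not all of these directions were steady, and 17 of the 30 changed in some refit or alternative setting. Only Cd86 and Trem2 kept theirs throughout on day 3, and only Cd68, Arg1 and Mrc1 on day 14. On day 7, where table and transection cannot be told apart, all but Nos2 and Cd163 kept theirs.

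On day 7, Msr1 in sensory nerve- rats 2 to 4 (112, 115 and 95.5 CPM) lay above every sensory nerve+ rat (27.8 to 50.5 CPM), while rat 1 with 25.7 CPM lay below them. The log2 fold change was 1.15 ± 0.43, 2.22-fold, with an unadjusted edgeR p of 0.0278 and an adjusted p of 1.00. On the same day Arg1 was higher by 1.49 ± 0.69, Cd68 by 1.00 ± 0.56, Trem2 by 0.92 ± 0.51 and Mrc1 by 0.72 ± 0.43, none past the test. Rat 1 had the lowest Arg1, Cd68, Trem2, Mrc1, Cd86 and Msr1 of the sensory nerve- group of that day, beside its muscle sum of 43189 CPM. Without it the effects were 1.85 for Arg1, 1.46 for Msr1 and 1.298 for Cd68, and their adjusted p was 0.458 with edgeR. On day 14, Cd68 was higher in the sensory nerve- group by 0.97 ± 0.37, 1.96-fold, with an unadjusted edgeR p of 0.0288 and an adjusted p of 0.519. Of the 4 sensory nerve- rats 3 lay above every sensory nerve+ rat (102 to 171 CPM) and rat 3 with 101 CPM lay below. On that day 10 of 10 osteoclast markers (median 1.66) and 8 of 9 T cell markers (1.41) lay above 0 and 0 of 10 skeletal muscle markers did (-2.66), none called, and their part in the Cd68 level was not tested. Arg1 differed by 1.18 ± 0.73 and Msr1 by 0.28 ± 0.27 on that day. Scaling to library totals alone lowered the median of all genes on day 14 from 0.03 to -0.41, and Cd68 was then at 0.63.

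On day 3 the effects were -0.84 ± 0.94 for Arg1, -1.20 ± 1.03 for Nos2, -0.31 ± 0.45 for Msr1 and 0.23 ± 0.35 for Cd68, none past the test. Without sensory nerve+ rat 1 alone, the first 3 changed direction and were 0.59, 0.20 and 0.33. With that rat and sensory nerve- rat 4, chosen after their values were seen, both left out, they were -0.51, -0.77 and 0.0035, and none of all genes was called. For Nos2 the effect was -0.28 ± 1.16 on day 7 and 1.58 ± 1.15 on day 14. It became 1.81 without sensory nerve+ rat 4 of day 7 and -0.34 without sensory nerve- rat 4 of day 14.

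**Figure D4:**
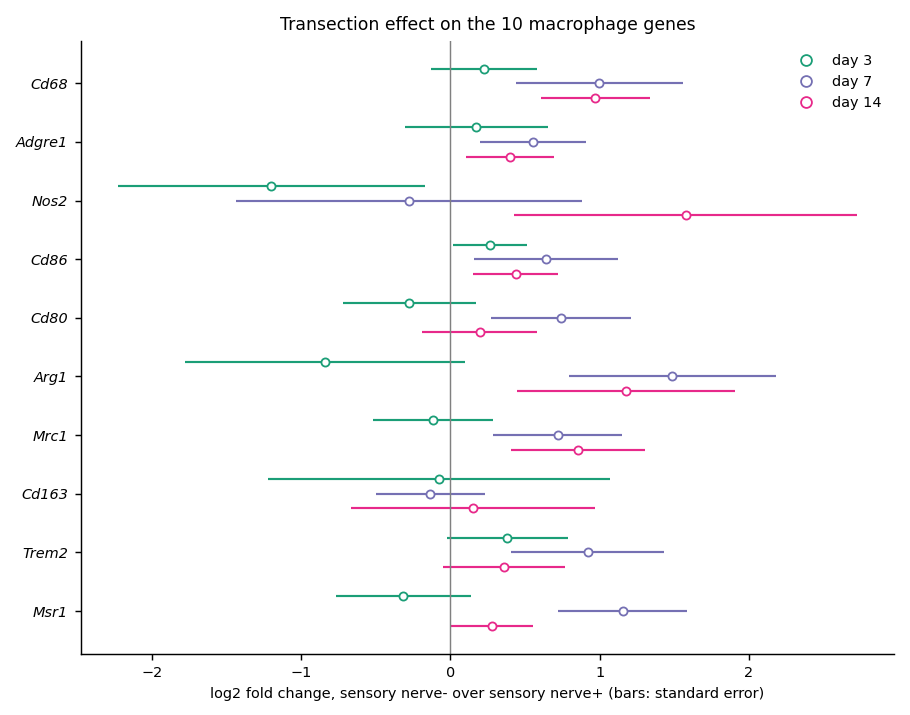
Log2 fold change of the sensory nerve- over the sensory nerve+ group for the 10 genes on each day, with standard errors. All points are open because none passed an adjusted p of 0.05. On day 14 all 10 lay above 0 and on day 3 there were 4, and 17 of the 30 directions changed in some refit or alternative setting. Of the day 7 directions, only those of Nos2 and Cd163 did.

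Whether the transection effect changed with time was tested over all 23 rats, and none of the 10 genes passed from day 3 to day 7 or to day 14, nor did any of 15858 genes with edgeR (0% each). Of the 10, 1 and 0 had an unadjusted p under 0.05, as had 164 and 1029 of all genes, and DESeq2 called 0 of the 10 and 8 and 30 of all genes. From day 3 to day 7 the effect changed by 1.46 ± 0.60 for Msr1, by 2.33 ± 1.19 for Arg1 and by 0.76 ± 0.70 for Cd68 on the log2 scale, and the adjusted p was 1.00 for each.

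Genes that share a pathway with the 10 were counted from lists that leave the 10 out. Of 22 other macrophage and monocyte identity genes, 0 were called for transection on any day, and 5, 21 and 18 of 22 lay above 0 on days 3, 7 and 14, with medians of -0.12, 0.72 and 0.42. Between day 3 and day 14, 4 of 22 were called in the sensory nerve+ group, all higher on day 3, and 7 of 22 in the sensory nerve- group, 5 higher and 2 lower on day 3. The shares of all genes called in these comparisons, 5.78% and 23.5%, are the background for this and the following lists. Cd14, the LPS coreceptor, was called in both, with log2 fold changes of 2.06 ± 0.39 and 1.69 ± 0.34, and so was Folr2, a folate receptor of resident macrophages, with 2.21 ± 0.40 and 1.90 ± 0.39. The complement genes C1qa, C1qb and C1qc were lower on day 3 than on day 7 in the sensory nerve- group, with C1qa at 52.7 ± 8.7 against 130 ± 48 CPM (SD, n = 4 each), and table and day cannot be told apart there.

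In the Trem2 and scavenger receptor list, 2 of 17 were called between day 3 and day 14 in the sensory nerve+ group and 4 of 17 in the sensory nerve- group, all higher on day 3, the latter a share no larger than that of all genes. They included the lysosomal protease gene Ctsd in both, at 1.52 ± 0.32 and 1.48 ± 0.29, Spp1 (osteopontin) in the first, and Gpnmb and the phosphatidylserine-sensing receptor Axl in the second. For transection 12, 17 and 13 of 17 lay above 0 on days 3, 7 and 14, with medians of 0.11, 0.69 and 0.32, and none was called. In the list of arginine and nitric oxide metabolism, 4 of 14 were called between day 3 and day 14 in each group, 4 and 3 of them higher on day 3. Srm and Odc1, which lead from ornithine to polyamines, and Oat, which leads from ornithine to proline, were among those called in the sensory nerve+ group, at 1.101 ± 0.19, 0.70 ± 0.15 and 0.88 ± 0.15.

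Other members of the activation lists did not move as one. Of 19 or 20 classical activation genes tested, 3 were called between day 3 and day 14 in the sensory nerve+ group, with Tnf higher on day 3 by 3.04 ± 0.60 and the interferon-induced Gbp2 and Gbp5 lower by 1.48 ± 0.30 and 1.82 ± 0.20. In the sensory nerve- group 8 were called, 2 higher and 6 lower on day 3, among them the chemokines Cxcl9 and Ccl5 at -2.83 ± 0.40 and -3.74 ± 0.74. Of 16 or 17 alternative activation genes besides Arg1, Mrc1 and Cd163, 0 and 2 were called between these days, and the 2 went in opposite directions, with Egr2 higher on day 3 by 1.54 ± 0.23 and the macrophage elastase Mmp12 lower by 1.61 ± 0.38. Of 11 B7 partner and antigen presentation genes, 1 and 4 were called, all lower on day 3, with Cd28, the T cell receptor for Cd80 and Cd86, at -1.97 ± 0.38 and -2.82 ± 0.71. The T cells that carry Cd28 were not separated from other cells.

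The 10 genes did not all run together across the 23 rats. The following correlations are of log2 CPM, the rats share groups and tissue make-up, and the value after removing group means follows each. Arg1, Mrc1 and Msr1 ran together, with r of 0.92 (0.88) for Mrc1 and Msr1, 0.91 (0.80) for Arg1 and Msr1 and 0.90 (0.72) for Arg1 and Mrc1. Cd68 ran with Cd86 at 0.87 (0.79) and with Trem2 at 0.80 (0.71), and Adgre1 with Cd80 at 0.81 (0.85). Cd68 also had 0.75 (0.76) with Mrc1 and 0.65 (0.71) with Msr1. For Adgre1 the values rose once group means were removed, from 0.18 to 0.63 with Mrc1 and from -0.01 to 0.57 with Msr1. Nos2 had its highest values with Cd163 at 0.43 (0.29) and Cd80 at 0.42 (0.48), and its r with Arg1 was 0.26 (0.35).

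Over the 14335 genes with a mean of at least 1 CPM, the genes most like Cd68 were the lysosomal genes Tpp1 and Grn and the surface peptidase Anpep, with r of 0.98, 0.97 and 0.96. Those most like Msr1 were Lgmn, Idh1 and RGD1561662, at 0.97, 0.95 and 0.95, and r for Idh1 was 0.60 once group means were removed. Trem2 was nearest to Pld3, Gpnmb and the lipid carrier Apoe, at 0.95, 0.95 and 0.94, and Mrc1 to Cndp2, Ap1b1 and Tmem104, all at 0.95. Arg1 was nearest to Steap1, Pid1 and P4hb, at 0.95, 0.95 and 0.94. Cd86 was nearest to Clec4a1, Slc15a3 and Ppt1, at 0.91, 0.90 and 0.90, and Cd80 to Tasl, Il10ra and Nrros, at 0.92, 0.91 and 0.91. The decoy interleukin-1 receptor gene Il1r2 was nearest to Nos2, at 0.91, before LOC102554746 and Rgsl1, both at 0.90. Adgre1 had Lmo2, Slc36a3 and Arhgef2 at 0.87 each, and Cd163 had no gene above 0.83, with Commd5, Utp23 and Akap7 at 0.83, 0.79 and 0.79.

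In LPS-stimulated RAW264.7 cells the 10 genes spanned the whole range from abundant to not detected. Levels are given here per kilobase of all annotated exons of a gene joined, and positions are those of build GRCm38. This length, 4946 bases for Trem2, can exceed that of the transcript made. Genes can thus be compared only roughly, and the order of those with near values is not settled. Cd68 (chr11:69664213-69666153) had 619 ± 11 CPM per kb (SD, n = 6), Msr1 (chr8:39581685-39642673) 113 ± 3, Adgre1 (chr17:57358691-57483527) 46.4 ± 1.1, Nos2 (chr11:78920787-78960254) 31.0 ± 1.7 and Trem2 (chr17:48346401-48354147) 26.0 ± 0.7. Cd80 (chr16:38455561-38496335) followed with 2.72 ± 0.20 and Mrc1 (chr2:14229392-14332057) with 0.190 ± 0.032. Cd86 (chr16:36603869-36666081) had between 4 and 15 reads in each of the 11 cultures, and Arg1 (chr10:24915221-24927484) between 0 and 5. Cd163 (chr6:124304656-124330527) had 0 reads in all 11, which allows up to 0.00804 CPM in the 6 LPS cultures together and 0.00929 CPM in the 5 with CGRP, counting error alone considered. Of the 21 other identity genes measured, 13 reached a mean of 1 CPM, and 7 of 8 mast cell and 6 of 8 epithelial markers were at 0.

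None of the 7 genes that passed the filter on low values was called for CGRP, where limma called 3 of 13492 genes, 0.0222% of those tested. None of the 7 had an unadjusted p under 0.05, against 1357 of all genes, and neither edgeR nor DESeq2 on the whole reads called any, with 0 and 87 of all genes called and no adjusted p from DESeq2 for Cd80 and Mrc1. Nos2 had 7825, 8589, 8662, 7379, 8670 and 9802 reads in the LPS cultures and 9765, 8464, 8001, 7701 and 8971 with CGRP, so that the groups overlapped. On the log2(CPM + 0.5) scale Nos2 differed by -0.042 with a 95% interval from -0.109 to 0.024, which is -7.26% to 1.67%, and a limma adjusted p of 0.674. Trem2 differed by -0.037 (-0.081 to 0.007), Adgre1 by 0.018 (-0.017 to 0.053), Msr1 by 0.013 (-0.022 to 0.047), Cd68 by -0.004 (-0.035 to 0.026) and Cd80 by 0.023 (-0.072 to 0.118). Mrc1, with 58 to 92 reads per culture, differed by -0.006 with the widest interval, -0.194 to 0.182, or -12.6% to 13.4%. The percentages are changes of CPM + 0.5, so that for a low gene such as Mrc1 they understate the range of change of the gene itself. The intervals hold for this dose and time. Nothing in the labels says whether the 11 samples came from separate passages, so that the intervals cover the spread between these samples.

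Arg1 had 1, 0, 0, 2, 1 and 1 reads in the LPS cultures and 1, 3, 3, 5 and 2 with CGRP. The groups overlapped, with 5 and 14 reads in all, and the difference was not tested. Without the filter, which let Cd86 and Arg1 into the limma fit, none of the genes was called. Among the lists, 0 of 13 identity genes, 0 of 16 alternative activation genes, 0 of 17 Trem2 and scavenger receptor genes, 0 of 12 arginine metabolism genes and 0 of 5 B7 partner genes were called. Of 19 classical activation genes 1 was called, the interferon-induced chemokine Cxcl10, at 403 ± 16 CPM with CGRP (SD, n = 5) and 453 ± 17 CPM with LPS alone (SD, n = 6), a log2 fold change of -0.17 ± 0.03 (SE) with a limma adjusted p of 0.0322. No gene, Cxcl10 included, was called with edgeR on the whole reads or by limma without LPS culture 1, 2 or 5 or without LPS with CGRP culture 2 or 5.

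**Figure D5:**
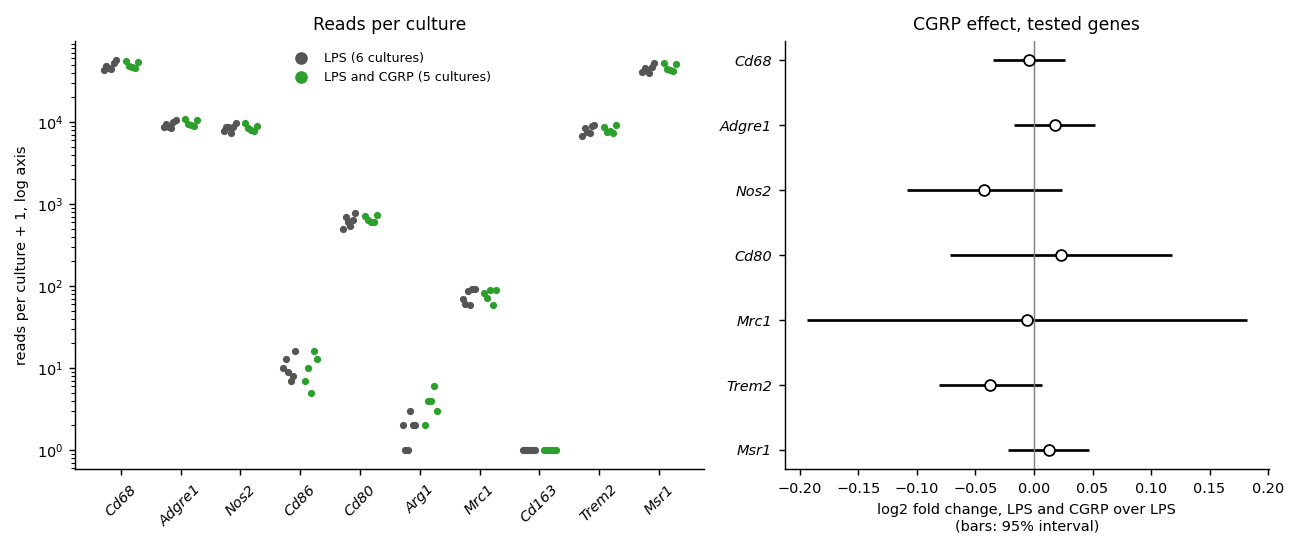
Left, reads plus 1 of each gene in each culture on a log axis, for LPS alone and for LPS with CGRP. Right, log2 fold change of LPS with CGRP over LPS for the 7 genes tested, with 95% intervals, all of which include 0; Mrc1 had the widest, from -0.194 to 0.182.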

How the data were processed

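Periodontal healing tissue of 23 rats and 11 RAW264.7 cultures were measured by RNA sequencing, and groups were taken from the labels. For the rats the authors deposited expected counts per gene (DNBSEQ libraries, HISAT, mRatBN7.2, with Bowtie2 also named in the submitters' processing notes); the counting program is not given in the sources used here. For the cultures the deposited values are a signal, whole reads multiplied by 1 factor per run (Cutadapt, STAR, featureCounts, mm10): 100% of 379006 values above 0 lay within 0.02 of a whole read. Depth was 14854389 to 18742274 counts per rat and 55614185 to 71538840 reads per culture, and intervals and floors that rest on reads cover counting error only.

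Rat counts were rounded, filtered (filterByExpr), scaled by TMM and tested with the edgeR quasi-likelihood test (edgeR 4.0.16, R 4.3.3), 2 groups per fit and all 23 rats for interactions. The standard errors of rat fold changes were derived from this test, as the absolute log2 fold change divided by the square root of its F statistic. The 2 runs of a culture were summed and tested with limma 3.58.1 on log2(CPM + 0.5), so that fold changes of low genes are understated. P-values were adjusted by Benjamini-Hochberg over all genes tested, with a threshold of 0.05. Alternatives were DESeq2 1.42.0, other scalings, filters and pseudocounts, single runs, 1 fit of all rats, the replicate number as a block and each sample left out; edgeR was also run on the whole reads. The scripts were tested on simulated data. Named are the 10 genes, at most 3 called genes per list and comparison with the smallest p, and the 3 genes most correlated with each of the 10. The 10 genes and the lists were chosen with earlier results of these data known. Plots were drawn with matplotlib 3.10.9.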

Additional observations from a re-analysis of the deposited data

Results flagged for a closer look

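Of 68 combinations of gene and group with 4 to 6 samples, 5 had 1 sample far from the rest by Dixon's criterion at the 95% level, where chance gives about 1 in 20. Arg1 was 313 CPM in sensory nerve- rat 4 of day 3, and the nearest rat of that group had 60.4 CPM. Nos2 was 40.8 CPM in sensory nerve+ rat 4 of day 7, and the nearest had 4.01 CPM. Nos2 was 313 CPM in sensory nerve- rat 4 of day 14, and the nearest had 32.2 CPM. Cd86 was 10.4 CPM in sensory nerve- rat 1 of day 14, and the nearest had 7.22 CPM. Arg1 was 11.3 CPM in sensory nerve- rat 2 of day 14, and the nearest had 2.46 CPM.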

How the results depend on the processing

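Of 670 recomputed fold changes, 590 kept direction and side of the threshold, 47 lost and 11 gained the call, and 22 changed direction. The cause of these changes was not tested. Numbers of the 10 genes called moved as follows. With the replicate block, 0 were called in the comparisons of days 3 with 7, 7 with 14 and 3 with 14 of the sensory nerve+ group (2, 1 and 3 as reported), and no other count of the 10 moved. The lowest correlation between deviations of same-numbered samples was from -0.39 to 0.0006 over the comparisons. Mean correlations ran from -0.11 to 0.16 for same-numbered pairs and from -0.06 to 0.04 for other pairs. These values do not settle whether same-numbered samples share a factor. With DESeq2, which gave Arg1 no adjusted p in the comparisons of day 3, the sensory nerve+ counts of days 3 with 7 and 3 with 14 went from 2 to 3 (Mrc1, Cd163, Msr1) and from 3 to 4 (Cd68, Mrc1, Trem2, Msr1) and the sensory nerve- count of days 3 with 14 from 4 to 3 (Mrc1, Trem2, Msr1); 3 were called for day 7 against 14 in the sensory nerve+ group, and 1 for day 3 against 7 and 2 for day 7 against 14 in the sensory nerve- group. With all 23 rats in 1 fit these were 0, 1 and 2. Scaling to library totals gave 1 for day 7 against 14 and 2 for day 3 against 14 in the sensory nerve- group.

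Leaving out 1 rat, the counts ranged from 0 to 2 (day 3 against 7), 0 to 1 (7 against 14) and 0 to 4 (3 against 14) in the sensory nerve+ group and were 0, 0 to 2 and 2 to 4 in the sensory nerve- group. With 1 rat left out, transection effects that changed direction ranged on day 3 from -0.0666 to 0.474 for Cd68, -1.94 to 0.59 for Arg1, -2.16 to 0.20 for Nos2 and -0.64 to 0.33 for Msr1, and for Nos2 from -1.21 to 1.81 on day 7 and -0.34 to 2.37 on day 14. With 1 culture left out, CGRP effects ranged from -0.0108 to 0.0004 for Cd68, -0.0056 to 0.0448 for Cd80 and -0.0615 to 0.0424 for Mrc1. Direction also changed with the replicate block for Nos2 on day 7 (0.21) and, under CGRP, Cd68 (0.0004) and Mrc1 (0.0024), with run 2 alone for Mrc1 (0.0636), with library totals for Msr1 on day 14 (-0.0402), and for Msr1 on day 3 without both rats that stood apart (0.0035), an alternative chosen after seeing the data.

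Over all genes, DESeq2 called 2808, 325 and 3375 in the 3 sensory nerve+ day comparisons (1002, 3 and 871 with edgeR), 3217 and 1991 between days 3 and 7 and days 7 and 14 in the sensory nerve- group (1524 and 2), 95 for transection on day 14 (0) and 87 for CGRP (3 with limma). The replicate block gave 122, 0 and 0, then 2 and 0 in the same day comparisons, and 28 for CGRP. All 23 rats in 1 fit gave 2606 between days 3 and 14 in the sensory nerve+ group and 2287 and 927 in the first and second sensory nerve- comparisons. Library totals gave 579, 13 and 547 in the sensory nerve+ and 21 and 1184 in the last 2 sensory nerve- comparisons and 11 for CGRP; edgeR, the stricter filter and run 1 alone gave 0, 14 and 7 for CGRP. Among genes called between days 3 and 7 in the sensory nerve+ group 26.8% were higher on day 3, against 12.4% with library totals, 8.2% with the replicate block, 43.9% with DESeq2 and 55% with all 23 rats in 1 fit, where the majority turned, and between days 3 and 14 53.4% against 34.6% there and 62.2% against 74.0% in the sensory nerve- group. Library totals moved the median of all genes from 0.01 to 0.40 and from 0.05 to 0.42 between days 7 and 14 and days 3 and 14 of the sensory nerve- group, and from -0.01 to -0.12 and from 0.04 to -0.47 for the 2 changes of the transection effect.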
